A study of Mus musculus with 10 samples.

Results

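The genes described here are 44 markers of white blood cells, read in RNA sequencing libraries of mouse colon crypts, the epithelial pits of the large bowel. They comprise Ptprc, which marks all leukocytes, 18 markers of T and NK cells, 9 of B and plasma cells, and 16 of myeloid and mast cells. The list was taken by name, and all 44 matched 1 gene ID each among the 33632 IDs of the deposited count table. Crypts of 10 libraries were compared. The 5 labelled SOX21CKO (CKO) carried Lgr5-EGFP-IRES-CreERT2/+;Sox21fl/fl, a tamoxifen-inducible Cre at the Lgr5 locus of epithelial stem cells together with Sox21 alleles flanked by loxP sites. The 5 labelled SOX21flox (flox) carried Sox21fl/fl and are listed without the Cre allele. All 10 libraries share the label of a normal diet and a normal liver. Age, sex, the tamoxifen schedule, and whether each library was a separate animal are not stated in those labels, so the p-values measure the spread between these libraries.

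Crypt preparations are enriched for epithelium, but the epithelium is itself inhabited by lymphocytes. Intraepithelial lymphocytes sit between epithelial cells, are rich in CD8-bearing T cells, and are held there by the integrin CD103 (Itgae), which binds E-cadherin. Plasma cells that secrete IgA, and most macrophages, lie in the lamina propria around the crypts and reach such a preparation with the stroma. In bulk libraries fewer cells of a type and less RNA per cell cannot be told apart.

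Library totals ran from 18926634 to 23642415 reads in CKO and from 21414122 to 23407565 reads in flox. Mitochondrially encoded transcripts took 26.5% of reads in flox 1 and 29.3% in flox 4, while the remaining 8 libraries held 4.30% to 11.8%, so fold changes are also given without those libraries where that moves them by over 1.5-fold or turns a sign. Group means of that share were 6.51 ± 3.10% in CKO and 15.4 ± 11.6% in flox (SD, n = 5 each; two-sided exact permutation test, p = 0.167). Sox21, the targeted gene, averaged 5.34 ± 1.94 CPM in CKO and 4.04 ± 1.80 CPM in flox (SD, n = 5 each), where CPM is reads per 1000000 of a library size normalized by trimmed mean of M values (TMM). Its transcript was thus not lower in the libraries labelled CKO (log2 fold change 0.38 ± 0.34 SE, edgeR adjusted p = 0.577). Group names below are those of the labels. Where the counted Sox21 reads lie relative to the loxP sites is not given. A set of 15 epithelial markers, Epcam and Vil1 among them, summed to 18334 to 34539 CPM in CKO and 26601 to 42789 CPM in flox.

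Leukocyte transcripts were found in every library at a low level. At least 1 read was seen for 42, 43, 43, 40 and 42 of the 44 members in CKO 1 to 5, and for 40, 42, 42, 35 and 42 in flox 1 to 5. At least 10 reads were seen for 31, 31, 34, 31 and 38 members in CKO 1 to 5, against 35, 34, 34, 27 and 27 in flox 1 to 5. Members had 2398 to 3993 reads per library in CKO and 1886 to 3458 in flox. The fewest members detected and the fewest member reads were both in flox 4. Against this, 10 genes of distant tissues with a row in the table had 2 to 10 reads together per CKO library and 1 to 11 per flox library, with no more than 7 for any gene. A gene with 0 reads can stand at up to 0.127 to 0.159 reads per 1000000 here, the level of 3 reads.

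Detection differed between the classes. Of the members, 19 had at least 10 reads in all 10 libraries: Ptprc, 11 of 18 T and NK markers, 3 of 9 B and plasma markers and 4 of 16 myeloid and mast markers. In 12 members some library had 0 reads. The low-count filter passed 36 members: Ptprc, 16 T and NK, 6 B and plasma and 13 myeloid and mast markers. The 8 that did not pass were Cd4, Il7r, Ms4a1, Mzb1, Pou2af1, Adgre1, S100a8 and Cpa3.

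As a share of all reads of a library, given as reads per 1000000 (ppm), the members together took 142, 137, 166, 127 and 180 ppm in CKO 1 to 5, and 104, 139, 160, 86.2 and 102 in flox 1 to 5. T and NK markers took 63.4, 50.8, 65.5, 66.7 and 24.4 ppm in CKO 1 to 5, and 43.7, 51.3, 70.4, 36.4 and 34.8 in flox 1 to 5. The groups overlapped in both measures. CKO 5 had the highest total of all members and, at the same time, the lowest T and NK share of any library, with a 95% Wilson interval of 22.4 to 26.5 ppm.

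Myeloid and mast markers took 61.9, 71.0, 86.5, 49.5 and 141 ppm in CKO 1 to 5, and 47.5, 72.8, 70.4, 36.3 and 51.3 in flox 1 to 5. B and plasma markers took the fewest reads of the 3 classes, with 5.98, 5.29, 8.0, 5.71 and 9.29 ppm in CKO 1 to 5, and 9.66, 5.60, 12.2, 11.1 and 6.40 in flox 1 to 5. CKO 5 stood above every other library in the myeloid class (Wilson interval 136 to 146). Group means with SD (n = 5 each) were 54.2 ± 17.8 in CKO and 47.3 ± 14.5 in flox for T and NK, 6.85 ± 1.72 in CKO and 9.0 ± 2.90 in flox for B and plasma, and 82.0 ± 35.8 in CKO and 55.7 ± 15.6 in flox for myeloid and mast markers. Each difference of means was smaller than the larger SD of its groups. Intervals and floors cover counting error only.

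**Figure D1:**
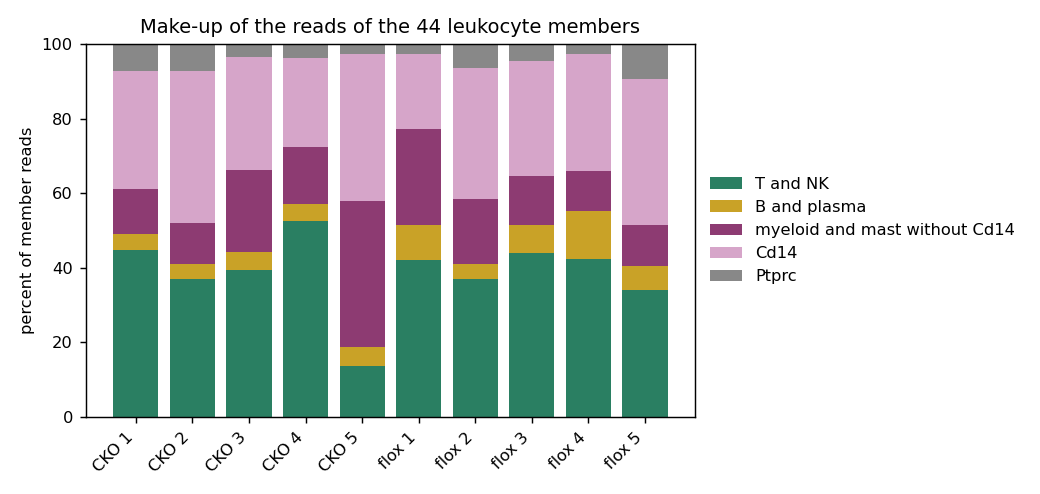
Share of member reads in percent (vertical axis) taken by each class in each library (bars, CKO 1 to 5 then flox 1 to 5). T and NK markers held 13.5% in CKO 5 and 34.1% to 52.6% in the other 9 libraries.

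Within the member reads, T and NK markers held 44.8%, 37.1%, 39.5%, 52.6% and 13.5% in CKO 1 to 5, against 42.2%, 37.0%, 43.9%, 42.3% and 34.1% in flox 1 to 5. B and plasma markers held 4.22%, 3.86%, 4.82%, 4.5% and 5.16% in CKO 1 to 5, against 9.33%, 4.04%, 7.63%, 12.9% and 6.28% in flox 1 to 5. CKO 5 stood apart from the other 9 libraries in its T and NK share, and the B and plasma share was highest in flox 4 and flox 1. With Cd14, the myeloid marker with the most reads, taken out of both the class and the total, myeloid markers held 17.6%, 18.8%, 31.3%, 20.1% and 64.6% of member reads in CKO 1 to 5, against 32.3%, 26.8%, 19%, 15.7% and 18.4% in flox 1 to 5.

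**Figure D2:**
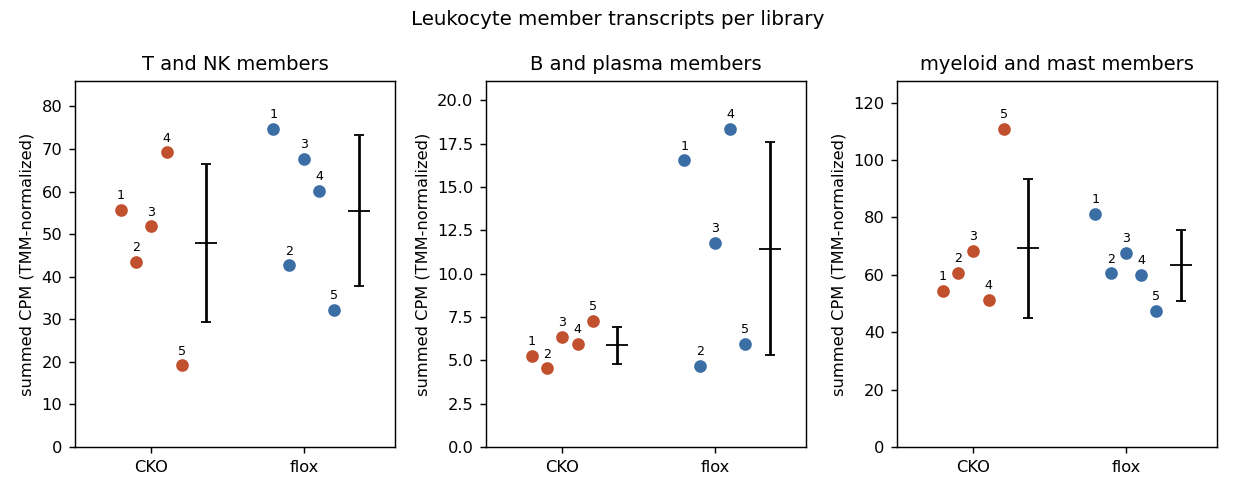
Summed level of each member class per library in CPM (vertical axis), CKO points left of flox points, with the group mean and SD. The T and NK sum ran from 19.1 to 69.2 CPM in CKO and from 32.2 to 74.8 CPM in flox libraries.

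Across the whole table, edgeR's quasi-likelihood test with Benjamini-Hochberg adjustment called 0 of 14963 tested genes between CKO and flox (0%; 756 genes, 5.05%, were higher and 1183, 7.91%, lower at an unadjusted p under 0.05). None of the 36 tested members was called, by edgeR, by DESeq2 (which called 165 genes, 0.957%), or by limma with sample quality weights. At an unadjusted p under 0.05, 0 members were higher and 4 were lower: Derl3, Igha, Klrd1 and Cd2. In 1 member, Derl3, every CKO library lay below every flox library, as in 1.26% of all tested genes, and in 0 members did every CKO library lie above, as in 0.922%. The median log2 fold change was -0.17 over the 36 members (11 above 0, 25 below) and 0.00 over all tested genes. Scaled to library totals without TMM it was 0.25 (27 above, 9 below), below the 0.36 of all tested genes under that scaling. It was 0.11 (21 above, 15 below) without flox 1 and flox 4, against 0.02 over all tested genes. In those 8 libraries 1 member was higher at an unadjusted p under 0.05 (Cd68; 3.34% of 15628 tested genes) and 1 lower (Derl3; 3.07%), and the adjusted test called 0 genes with edgeR and 68 (0.402%), none a member, with DESeq2.

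**Figure D3:**
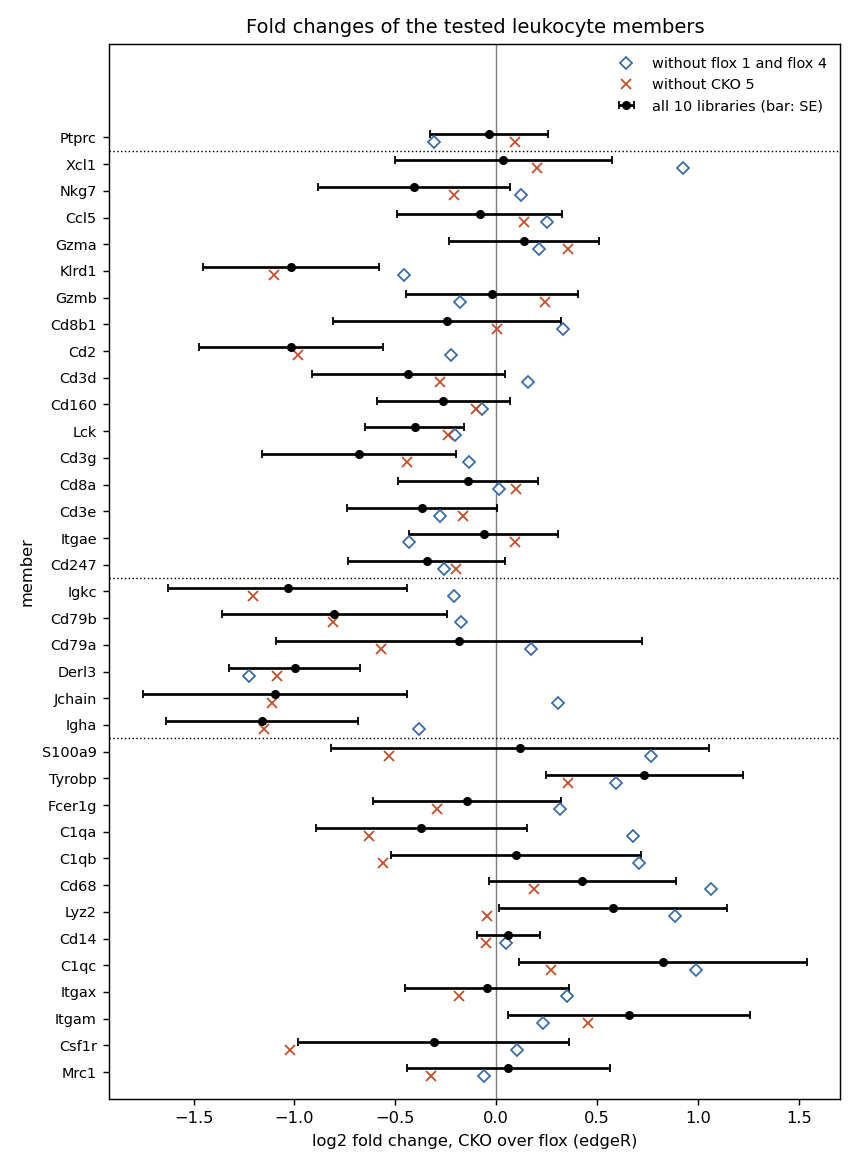
Log2 fold change of each tested member, CKO over flox (horizontal axis, bars show SE), grouped by class, from all 10 libraries and without flox 1 and flox 4. The B and plasma markers all lie below 0 with all libraries, and their median is -1.02 with all and -0.19 without the pair.

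Ptprc encodes CD45, the phosphatase on the surface of leukocytes of every lineage. It stood at 9.02, 8.47, 4.64, 4.99 and 3.93 CPM in CKO 1 to 5, against 4.59, 7.35, 7.0, 3.93 and 8.78 CPM in flox 1 to 5. The groups overlapped throughout, with means of 6.21 ± 2.35 CPM in CKO and 6.33 ± 2.02 CPM in flox, and the difference was within the error (log2 fold change -0.04 ± 0.29 SE, edgeR adjusted p = 0.956). In CPM, Ptprc spanned a 2.30-fold range over the 10 libraries, narrower than the 3.91-fold range of the summed T and NK markers. That order depended on the scaling. As a share of all reads, Ptprc had the wider relative range, from 2.38 ppm in flox 4 to 10.3 ppm in CKO 1. T and NK markers ran from 24.4 ppm in CKO 5 to 70.4 ppm in flox 3.

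The T and NK markers were led in reads by cytotoxic effector genes. Ccl5, a chemokine kept ready in memory and cytotoxic T cells, had the most reads of the class, at 10.7, 9.49, 13, 20.1 and 4.03 CPM in CKO 1 to 5, against 20.8, 8.84, 14.7, 11 and 5.45 CPM in flox 1 to 5. CKO 5 was lowest and flox 1 highest, and the groups overlapped (11.5 ± 5.83 CPM in CKO and 12.2 ± 5.89 CPM in flox; log2 fold change -0.08 ± 0.41 SE, edgeR adjusted p = 0.932; 0.25 without flox 1 and flox 4). Gzma, a granule protease of killer cells, stood at 11.8, 6.41, 6.19, 6.2 and 2.41 CPM in CKO 1 to 5, against 6.72, 6.0, 8.29, 6.12 and 2.85 CPM in flox 1 to 5. Its highest value was in CKO 1 and its lowest in CKO 5, with means of 6.6 ± 3.36 CPM in CKO and 6.0 ± 1.98 CPM in flox (log2 fold change 0.14 ± 0.37 SE, edgeR adjusted p = 0.861).

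Gzmb, a second granule protease, averaged 3.94 ± 1.93 CPM in CKO and 3.97 ± 1.5 CPM in flox (log2 fold change -0.02). Nkg7, a protein of the cytotoxic granule membrane, averaged 2.76 ± 1.56 CPM in CKO and 3.68 ± 2.13 CPM in flox (log2 fold change -0.41, and 0.12 without flox 1 and flox 4). Neither passed the test. On the length-scaled FPKM of the authors, Ccl5 averaged 59.1 in CKO and 43.0 in flox, and Gzma 13.4 in CKO and 9.12 in flox. Compared per length, then, Ccl5 was the higher of the pair in both groups.

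The T cell receptor machinery was read in every library. Lck, the kinase that starts T cell receptor signalling, stood at 5.25, 5.5, 5.81, 6.53 and 2.76 CPM in CKO 1 to 5, against 9.02, 5.18, 7.53, 7.33 and 5.23 CPM in flox 1 to 5. Means were 5.17 ± 1.43 CPM in CKO and 6.86 ± 1.64 CPM in flox, with overlapping groups (log2 fold change -0.40 ± 0.25 SE, edgeR adjusted p = 0.449). Among the CD3 chains that carry the receptor signal, Cd3e averaged 2.1 ± 0.989 CPM in CKO and 2.7 ± 0.998 CPM in flox, and Cd3g 2.59 ± 1.5 CPM in CKO and 4.17 ± 2.18 CPM in flox. Cd3d and the zeta chain Cd247 had log2 fold changes of -0.44 and -0.34, and those of Cd3e and Cd3g were -0.37 and -0.68. All 4 were below 0 with all libraries, with adjusted p from 0.496 to 0.659. Without flox 1 and flox 4, Cd3d came to 0.16 and Cd3g to -0.13.

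Cd3d and Cd3g lie head to head, with annotated starts 1338 bases apart, and are shown because they are the defining T cell members. The 150 bases before each start, credited to RefSeq with build GRCm38.p6, run 5′ to 3′ on the gene's own strand. Cd3d is chr9:44981619-44981768 on the plus strand and Cd3g is chr9:44980432-44980581 on the minus strand. Capitals would mark GAGGAA on either strand, the core letters bound by PU.1, a factor of myeloid and B cells, and neither sequence holds it.
Cd3d: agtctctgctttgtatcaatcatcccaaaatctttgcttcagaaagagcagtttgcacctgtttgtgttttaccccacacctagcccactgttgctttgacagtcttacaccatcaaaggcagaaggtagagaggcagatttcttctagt
Cd3g: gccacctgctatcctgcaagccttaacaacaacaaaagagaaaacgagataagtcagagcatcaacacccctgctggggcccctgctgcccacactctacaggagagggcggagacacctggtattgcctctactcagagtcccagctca

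Of the co-receptors, CD8 was read and CD4 almost not at all. Cd8a, the chain found on most intraepithelial T cells, stood at 5.6, 4.02, 5.22, 4.88 and 1.2 CPM in CKO 1 to 5, against 5.14, 3.69, 5.35, 5.52 and 3.42 CPM in flox 1 to 5. CKO 5 was again lowest, while the means differed by less than either SD (4.19 ± 1.77 CPM in CKO and 4.62 ± 0.989 CPM in flox; log2 fold change -0.14 ± 0.35 SE, edgeR adjusted p = 0.847; 0.01 without flox 1 and flox 4). Cd8b1, the chain that pairs with it on conventional CD8 T cells, averaged 1.29 ± 0.871 CPM in CKO and 1.54 ± 1.01 CPM in flox. The log2 fold change of Cd8b1 was -0.24, and 0.33 without flox 1 and flox 4. Cd4 had 0, 2, 3, 6 and 0 reads in CKO 1 to 5, and 0, 3, 5, 0 and 1 in flox 1 to 5. Cd8a had at least 34 reads in each library. On the FPKM scale, which is per length, Cd8a averaged 1.95 in CKO and 1.77 in flox, and Cd4 averaged 0.038 in CKO and 0.030 in flox. Il7r, the interleukin 7 receptor of naive and memory T cells, had 0 to 9 reads per library and, like Cd4, did not pass the filter.

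Markers of tissue residence and of NK-type receptors were present as well. Itgae averaged 2.28 ± 0.666 CPM in CKO and 2.34 ± 1.21 CPM in flox, with a log2 fold change of -0.06. Cd160, a receptor of intraepithelial and NK cells, averaged 1.24 ± 0.448 CPM in CKO and 1.49 ± 0.487 CPM in flox, and Xcl1, a chemokine for cross-presenting dendritic cells, 0.612 ± 0.295 CPM in CKO and 0.622 ± 0.453 CPM in flox. These 3 had log2 fold changes from -0.26 to 0.04, and none passed the test. Those near-zero values rested on flox 1 and flox 4 for Xcl1, which came to 0.92 without them, while Itgae came to -0.43 and Cd160 to -0.07. Klrd1, which encodes the NK receptor chain CD94, stood at 0.70, 0.253, 0.727, 0.713 and 0.778 CPM in CKO 1 to 5, against 1.82, 0.568, 1.34, 2.12 and 0.735 CPM in flox 1 to 5. The group ranges overlapped between 0.568 and 0.778 CPM, with means of 0.634 ± 0.215 CPM in CKO and 1.32 ± 0.669 CPM in flox (log2 fold change -1.02 ± 0.44 SE, edgeR adjusted p = 0.379; unadjusted p = 0.0384). Its log2 fold change was -0.46 without flox 1 and flox 4.

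Cd2, an adhesion receptor of T and NK cells, stood at 0.394, 0.326, 0.311, 0.603 and 0.354 CPM in CKO 1 to 5, against 1.42, 0.462, 0.357, 1.36 and 0.562 CPM in flox 1 to 5. Flox 1 and flox 4 held its 2 highest values, and the other 3 flox libraries lay within the CKO range. Means were 0.398 ± 0.119 CPM in CKO and 0.833 ± 0.516 CPM in flox (log2 fold change -1.02 ± 0.46 SE, edgeR adjusted p = 0.381; unadjusted p = 0.0459), and without flox 1 and flox 4 the log2 fold change was -0.22.

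Over the class, 2 of 16 tested T and NK markers had a log2 fold change above 0 and 14 below, with a median of -0.30, against 0.00 over all tested genes (50.1% above, 49.9% below). Scaled to library totals without TMM it was 0.10, below the 0.36 of all tested genes under that scaling, and without flox 1 and flox 4 it was -0.10 (7 above, 9 below). Summed T and NK CPM averaged 47.9 ± 18.6 in CKO and 55.5 ± 17.7 in flox (SD, n = 5 each), and 47.5 ± 18.2 over flox 2, flox 3 and flox 5. CKO 5 was the lowest of all 10 libraries for 10 of the 16 tested markers, where 14.4% of all tested genes were lowest in that library. Leaving out CKO 5 put the class median at -0.13, with 7 above 0 and 9 below.

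**Figure D4:**
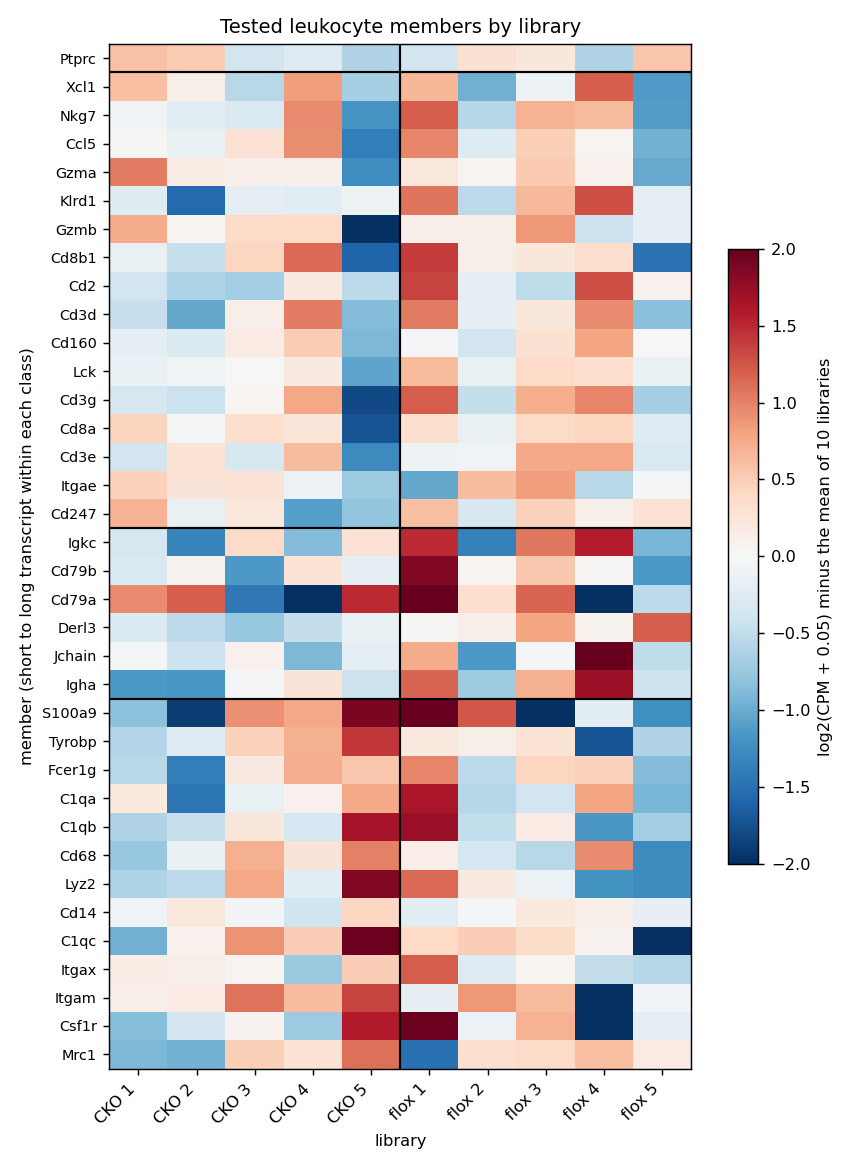
Relative level of the 36 tested members (rows) in each library (columns, CKO 1 to 5 then flox 1 to 5). Colour shows log2(CPM + 0.05) minus the mean of the row over the 10 libraries, so levels cannot be compared between rows. In CPM, Cd14 ran from 31.3 to 55.4 over the libraries, while 10 of the 16 tested T and NK members are lowest in CKO 5.

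B and plasma cell transcripts were few, and those of the IgA secretory cell led. Igha, the constant region of the IgA heavy chain, stood at 1.36, 1.34, 3.01, 3.67 and 2.26 CPM in CKO 1 to 5, against 6.88, 1.85, 5.04, 10.3 and 2.29 CPM in flox 1 to 5. Flox 4, flox 1 and flox 3 were the 3 highest libraries, and flox 2 and flox 5 lay within the CKO range. Means were 2.33 ± 1.02 CPM in CKO and 5.27 ± 3.47 CPM in flox (log2 fold change -1.16 ± 0.48 SE, edgeR adjusted p = 0.374; unadjusted p = 0.0313). With flox 1 and flox 4 left out, the log2 fold change was -0.38.

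Igkc, the kappa light chain constant region, stood at 1.05, 0.507, 1.76, 0.713 and 1.66 CPM in CKO 1 to 5, against 3.88, 0.497, 2.85, 4.08 and 0.692 CPM in flox 1 to 5. As for Igha, the 3 highest values were in flox 4, flox 1 and flox 3 (1.14 ± 0.56 CPM in CKO and 2.4 ± 1.71 CPM in flox; log2 fold change -1.03 ± 0.59 SE, edgeR adjusted p = 0.436). Igkc came to -0.21 without flox 1 and flox 4. Jchain, which joins IgA into dimers for transport across the epithelium, stood at 0.438, 0.326, 0.484, 0.219 and 0.389 CPM in CKO 1 to 5, against 0.791, 0.178, 0.446, 2.57 and 0.303 CPM in flox 1 to 5. Flox 4 alone stood far above the rest, and the means were 0.371 ± 0.103 CPM in CKO and 0.857 ± 0.984 CPM in flox (log2 fold change -1.10 ± 0.66 SE, edgeR adjusted p = 0.446). Jchain had a log2 fold change of 0.30, the opposite sign, without flox 1 and flox 4, and -0.11 without flox 4 alone.

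Derl3 belongs to the machinery that clears misfolded proteins from the endoplasmic reticulum and is high in plasma cells. It stood at 0.70, 0.579, 0.484, 0.603 and 0.778 CPM in CKO 1 to 5, against 0.87, 0.923, 1.52, 0.907 and 2.03 CPM in flox 1 to 5. Every CKO value was below every flox value, the lowest flox library being flox 1 and the highest flox 5. Means were 0.629 ± 0.113 CPM in CKO and 1.25 ± 0.513 CPM in flox (log2 fold change -1.0 ± 0.33 SE, edgeR adjusted p = 0.365; unadjusted p = 0.00994). Derl3 kept this direction without flox 1 and flox 4 (log2 fold change -1.23, adjusted p = 0.602), and its adjusted p ran from 0.0694 to 0.644 over the alternatives. Its pattern over the flox libraries was not that of Igha: flox 5 was highest for Derl3 and held 2.29 CPM of Igha, against 10.3 CPM of Igha in flox 4.

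The remaining B and plasma markers also had few reads, as did Jchain above with 4 to 34 per library. Cd79b, a signalling chain of the B cell receptor, stood at 0.35, 0.471, 0.173, 0.548 and 0.389 CPM in CKO 1 to 5, against 1.74, 0.462, 0.668, 0.453 and 0.173 CPM in flox 1 to 5. Its highest value was in flox 1, and the other flox values lay within or just above the CKO range (0.386 ± 0.142 CPM in CKO and 0.699 ± 0.608 CPM in flox; log2 fold change -0.80 ± 0.56 SE, edgeR adjusted p = 0.489). That fold change was -0.20 without flox 1 and -0.18 without flox 1 and flox 4. Its partner Cd79a had 0 to 24 reads per library and a log2 fold change of -0.18, or 0.17 without flox 1 and flox 4. Ms4a1, the CD20 antigen, had 0 to 12 reads, the coactivator Pou2af1 had 0 to 13 and the chaperone cofactor Mzb1 had 0 to 5, and none of these 3 passed the filter.

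All 6 tested B and plasma markers had log2 fold changes below 0, with a median of -1.02. In 5 of the 6, the highest library was flox 1 or flox 4, where 25.2% and 9.53% of all tested genes were highest in those libraries. Summed B and plasma CPM was 5.25, 4.53, 6.33, 5.92 and 7.29 in CKO 1 to 5, and 16.5, 4.65, 11.8, 18.4 and 5.93 in flox 1 to 5. The sums in flox 2 and flox 5 lay within the CKO range, and those in flox 1, flox 3 and flox 4 above it. The median was -0.19 without flox 1 and flox 4, with 2 above 0 and 4 below.

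Among myeloid markers, Cd14 had the most reads. Cd14, the co-receptor for bacterial lipopolysaccharide, is made by monocytes and macrophages and also by some epithelial cells. It stood at 39.4, 47.7, 39.9, 31.3 and 55.4 CPM in CKO 1 to 5, against 35.6, 40.5, 47.4, 44.7 and 36.9 CPM in flox 1 to 5. Its means were 42.7 ± 9.16 CPM in CKO and 41 ± 5.01 CPM in flox (log2 fold change 0.06 ± 0.16 SE, edgeR adjusted p = 0.859), and no library stood apart in CPM. Over 10 libraries it spanned a 1.77-fold range in CPM. By contrast, the summed CPM of 9 macrophage members spanned a 6.02-fold range (C1qa, C1qb, C1qc, Csf1r, Adgre1, Mrc1, Lyz2, Cd68 and Tyrobp, a set chosen after the values were seen). The size of this contrast depended on the scaling. On the FPKM scale, which uses library totals, Cd14 varied more, from 16.2 to 56.9. The FPKM sum of the macrophage members ran from 8.64 in flox 5 to 63.5 in CKO 5. Which cells the Cd14 reads came from was not tested.

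Those 9 members summed to 11.4, 10.2, 22.7, 15.0 and 47.9 CPM in CKO 1 to 5, and 38.0, 15.4, 15.6, 12.7 and 7.96 CPM in flox 1 to 5. In CPM, CKO 5 and flox 1 stood well above the other 8 libraries, 1 in each group. As a share of all reads, CKO 5 was still highest, at 61.1 ppm. Flox 1 did not stand apart on that scale. It held 22.2 ppm, below the 28.6 ppm of CKO 3 and near the 18.5 ppm of flox 2. Lyz2, a lysozyme of macrophages and neutrophils, stood at 4.42, 4.74, 11.7, 5.81 and 24.7 CPM in CKO 1 to 5, against 15, 7.74, 6.28, 2.95 and 2.81 CPM in flox 1 to 5. CKO 5 was highest and flox 5 lowest, with means of 10.3 ± 8.57 CPM in CKO and 6.95 ± 4.96 CPM in flox (log2 fold change 0.58 ± 0.56 SE, edgeR adjusted p = 0.613). Without CKO 5 the log2 fold change was -0.04. Lyz2 may share reads with its near copy Lyz1, whose counts were not examined, so the level of Lyz2 is uncertain to that extent.

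The C1q genes encode the chains of the first complement component and are made in the gut chiefly by macrophages. C1qa stood at 3.41, 1.05, 2.7, 3.18 and 5.09 CPM in CKO 1 to 5, against 9.33, 1.99, 2.27, 5.21 and 1.56 CPM in flox 1 to 5. Flox 1 was highest, flox 4 and CKO 5 followed, and the means were 3.09 ± 1.45 CPM in CKO and 4.07 ± 3.28 CPM in flox (log2 fold change -0.37 ± 0.52 SE, edgeR adjusted p = 0.723). Without flox 1 and flox 4 the sign turned, to 0.68, and without CKO 5 it was -0.63. C1qc stood at 0.306, 0.688, 1.25, 0.932 and 2.65 CPM in CKO 1 to 5, against 0.87, 0.923, 0.847, 0.68 and 0 CPM in flox 1 to 5. CKO 5 was its highest library and flox 5 had no read (1.17 ± 0.90 CPM in CKO and 0.664 ± 0.382 CPM in flox; log2 fold change 0.83 ± 0.71 SE, edgeR adjusted p = 0.568). C1qb averaged 1.85 ± 1.54 CPM in CKO and 1.78 ± 1.74 CPM in flox (log2 fold change 0.10, -0.56 without CKO 5, and 0.71 without flox 1 and flox 4).

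C1qb and C1qc are neighbours on chromosome 4, with annotated starts 6736 bases apart, and are printed as the macrophage pair beside the T cell pair above. Their 150 bases before the start, again from RefSeq build GRCm38.p6 and on the gene's own strand, are chr4:136886201-136886350 and chr4:136892937-136893086, both on the minus strand. Capitals mark GAGGAA, searched on both strands with overlaps counted.
C1qb: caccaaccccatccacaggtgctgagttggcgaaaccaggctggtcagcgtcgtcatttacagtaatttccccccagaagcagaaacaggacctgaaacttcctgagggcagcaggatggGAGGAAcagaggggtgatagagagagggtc
C1qc: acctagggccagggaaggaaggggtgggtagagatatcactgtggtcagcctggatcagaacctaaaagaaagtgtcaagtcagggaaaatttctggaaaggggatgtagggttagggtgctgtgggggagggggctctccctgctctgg
C1qb held 1 match, starting 30 bases before the annotated start, and C1qc none. In windows of the same length, 3269 of 22803 promoters (14.3%) held a match, and so did 8 of the 26 members with an entry, among them 4 of 11 myeloid and mast, 2 of 4 B and plasma and 2 of 11 T and NK markers. A match is a run of letters, not a binding site.

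Tyrobp, the adaptor DAP12 of activating receptors on myeloid and NK cells, stood at 0.394, 0.507, 0.865, 1.04 and 1.73 CPM in CKO 1 to 5, against 0.712, 0.675, 0.758, 0.151 and 0.389 CPM in flox 1 to 5. CKO 5 was highest and flox 4 lowest, and the groups overlapped (0.908 ± 0.531 CPM in CKO and 0.537 ± 0.259 CPM in flox; log2 fold change 0.73 ± 0.49 SE, edgeR adjusted p = 0.476). Csf1r, the receptor that macrophages need for survival, stood at 0.744, 1.05, 1.45, 0.823 and 4.28 CPM in CKO 1 to 5, against 5.54, 1.28, 2.27, 0.302 and 1.21 CPM in flox 1 to 5. Flox 1 and CKO 5 held its 2 highest values, and its log2 fold change was -0.31 (adjusted p = 0.825). Leaving out CKO 5 moved Csf1r to -1.02, and leaving out flox 1 and flox 4 turned it to 0.10. Cd68, a lysosomal glycoprotein of macrophages, averaged 1.28 ± 0.59 CPM in CKO and 0.982 ± 0.606 CPM in flox (log2 fold change 0.43). It came to 1.07 without flox 1 and flox 4, at an unadjusted p of 0.0408. Mrc1, the mannose receptor, had a log2 fold change of 0.06, or -0.06 without flox 1 and flox 4. Adgre1, the F4/80 antigen, had 0 to 48 reads and did not pass the filter.

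Integrin and Fc receptor chains were read in most libraries. Itgam, or CD11b, averaged 1.99 ± 0.778 CPM in CKO and 1.23 ± 0.836 CPM in flox (log2 fold change 0.66), and Itgax, or CD11c, 0.907 ± 0.267 CPM in CKO and 0.965 ± 0.623 CPM in flox (log2 fold change -0.05, and 0.35 without flox 1 and flox 4). Fcer1g, an Fc receptor signalling chain shared by myeloid, mast and NK cells, averaged 1.39 ± 0.713 CPM in CKO and 1.56 ± 0.778 CPM in flox (log2 fold change -0.15, and 0.32 without flox 1 and flox 4). None of these 3 passed the test. The neutrophil genes S100a8 and S100a9 had 0 to 10 and 0 to 32 reads per library, and the mast cell protease gene Cpa3 had 0 to 7. S100a9 had a log2 fold change of 0.12 ± 0.94 SE, and 0.77 without flox 1 and flox 4.

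Of the 13 tested myeloid and mast markers, 9 had log2 fold changes above 0 and 4 below, with a median of 0.10. CKO 5 held the highest value of 7 of them and flox 1 that of the other 6, where 13.5% and 25.2% of all tested genes were highest in those libraries. The class median changed sign with CKO 5: without that library it was -0.18, with 4 above 0 and 9 below. Without flox 1 and flox 4 it was 0.59, with 12 above 0 and 1 below. Library totals without TMM gave 0.61, with all 13 above 0, against 0.36 over all tested genes.

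Stromal transcripts also varied between libraries. The 16 fibroblast and muscle genes summed to 87.1, 97.0, 201 and 212 CPM in CKO 1 to 4 and 307 CPM in CKO 5, against 100, 108, 122, 40.1 and 69.4 CPM in flox 1 to 5. CKO 5 was highest for this sum as it was for myeloid markers, while flox 1, also high in macrophage members in CPM, was not. All 13 tested fibroblast and muscle genes had log2 fold changes above 0 (median 0.94), none passed the adjusted test, and 7 were under an unadjusted p of 0.05, where 5.05% of all tested genes were higher. The count was 1 without flox 1 and flox 4 (median 1.0; 3.34% of all tested genes). The collagen gene Col3a1 averaged 36.7 ± 22.9 CPM in CKO and 14.0 ± 5.11 CPM in flox (SD, n = 5 each; log2 fold change 1.39 ± 0.44 SE, edgeR adjusted p = 0.358). Col6a2, a collagen VI chain, averaged 16.4 ± 7.99 CPM in CKO and 7.02 ± 2.93 CPM in flox (SD, n = 5 each; log2 fold change 1.21). Postn had 0 reads in CKO 1 and CKO 2, Myh11 in CKO 2 and flox 1, and Pdgfra in flox 4. The part of stromal content in the member values was not tested.

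Red cell and platelet genes summed to 20.5 to 181 CPM in CKO, the highest being CKO 4, and to 9.13 to 62.6 CPM in flox. Of these, 5 of 5 tested genes had log2 fold changes above 0 (median 0.90, and 2.04 without flox 1 and flox 4). The haemoglobin genes Hbb-bs and Hbb-bt had log2 fold changes of 1.59 (edgeR adjusted p = 0.365) and 1.68 (adjusted p = 0.381). CKO 4, the highest for blood genes, was also the CKO library with the most T and NK CPM, at 69.2, but had a myeloid sum of 51.4 CPM, the lowest in CKO. Whether blood contributed to the member reads was not tested.

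Flox 1 and flox 4 also differed from the other flox libraries by transcript length. The log2 ratio of mean CPM in flox 1 and flox 4 over mean CPM in flox 2, flox 3 and flox 5 was lower for genes of longer exon length across all 14128 tested genes with a length (Spearman rank correlation -0.37), and the correlation was -0.46 across the 36 tested members. These are correlations across genes of the same libraries, given as description. Of 22 tested members under 2000 bases, 18 had a ratio above 0 and 4 below (median 1.10), the highest being 1.88 for C1qa, and those below 0 being Derl3 at -0.72, Gzmb at -0.47, Tyrobp at -0.45 and Cd14 at -0.05. Of 8 tested members of 4000 bases or more, 4 were above 0 and 4 below (median -0.10). Itgam (5024 bases) at -1.64, Itgae (4581 bases) at -1.29, Ptprc (18313 bases) at -0.85 and Mrc1 at -0.39 lay below, and Csf1r (5774 bases) at 0.86, Itgax (4803 bases) at 0.84, Cd247 and Cd3e above. Jchain, at 2517 bases, had the highest ratio of all tested members, 2.27. The median ratio was 0.80 over the 36 tested members and -0.08 over all tested genes with a length. From 2000 to under 4000 bases it was 0.77 over 6 members and 0.03 over all tested genes. From 4000 bases it was -0.10 for members and -0.25 for all tested genes. Below 2000 bases it was 1.08 for the 7 shortest members, against 0.84 for tested genes in that length range. For the other 15 it was 1.12, against 0.41 in their length range. What caused the length relation, or the higher medians of members, was not tested.

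**Figure D5:**
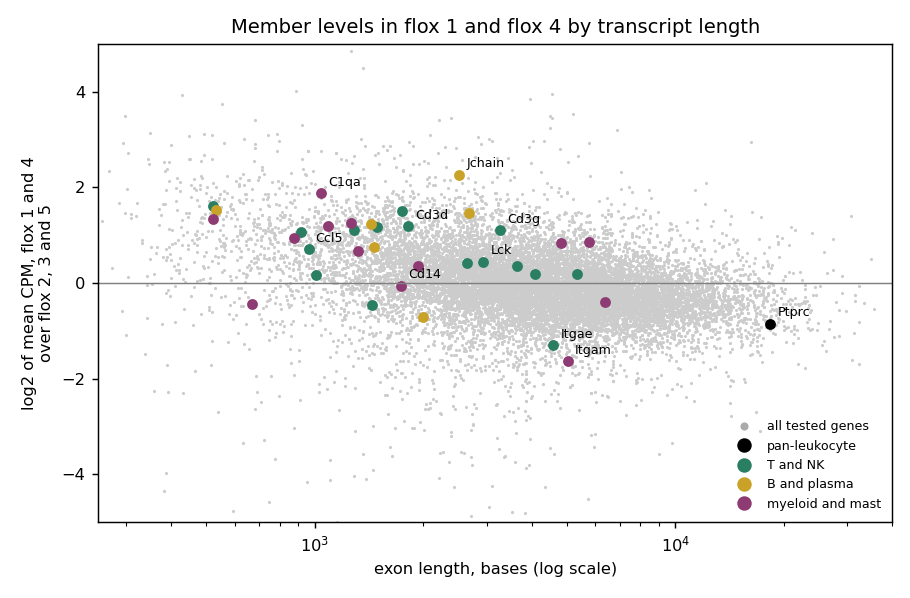
Log2 ratio of mean CPM in flox 1 and flox 4 over flox 2, flox 3 and flox 5 (vertical axis) against exon length in bases (horizontal log axis), for all tested genes (grey) and members (coloured by class). Of the 22 members under 2000 bases 18 lie above 0, and of the 8 of 4000 bases or more 4 do.

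Further leukocyte genes outside the 44 gave no call by edgeR. It called 0 of 15 tested pan-leukocyte genes (5 with log2 fold changes above 0, 10 below, median -0.09), 0 of 19 T and NK genes (5 above, 14 below, median -0.22, and 0.03 without flox 1 and flox 4), 0 of 7 B and plasma genes (2 above, 5 below, median -0.08) and 0 of 11 myeloid and mast genes (8 above, 3 below, median 0.21). Cd37, a leukocyte tetraspanin, averaged 1.72 ± 0.479 CPM in CKO and 2.72 ± 0.579 CPM in flox (log2 fold change -0.66, edgeR adjusted p = 0.374). Ptprcap, which binds CD45, averaged 3.44 ± 1.33 CPM in CKO and 9.32 ± 9.84 CPM in flox (log2 fold change -1.42, and 0.41 without flox 1 and flox 4). Both had small p-values within their list but did not pass over all genes.

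Zap70, the kinase that follows Lck, had a log2 fold change of -0.82 (edgeR adjusted p = 0.382), and Tcf7, a transcription factor of T cells and of crypt stem cells, 0.39 (adjusted p = 0.392). In the B and plasma list, Fkbp11, a secretory pathway chaperone, averaged 17.0 ± 4.27 CPM in CKO and 26.7 ± 9.72 CPM in flox (log2 fold change -0.65, adjusted p = 0.372). Cd38 averaged 131 ± 20.5 CPM in CKO and 158 ± 60.6 CPM in flox (log2 fold change -0.27, adjusted p = 0.547). The 24 genes of that list summed to 943 to 1143 CPM in CKO and 780 to 1258 CPM in flox. By comparison, the 9 B and plasma members summed to 4.53 to 7.29 CPM in CKO and 4.65 to 18.4 CPM in flox. Which cells the reads of that list came from was not tested.

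Mcpt1 and Mcpt2, proteases of mucosal mast cells and close copies that may share reads, were the leukocyte genes with the smallest p. Mcpt1 averaged 3.74 ± 1.78 CPM in CKO and 9.92 ± 3.91 CPM in flox (SD, n = 5 each; log2 fold change -1.40 ± 0.37 SE, edgeR adjusted p = 0.311), with every CKO library below every flox library. DESeq2 called Mcpt1 (adjusted p = 0.0309) with all libraries but not without flox 1 and flox 4 (adjusted p = 0.418). Mcpt2 averaged 1.56 ± 0.908 CPM in CKO and 4.15 ± 1.12 CPM in flox (log2 fold change -1.40, edgeR adjusted p = 0.337). Cpa3, the mast cell member of the 44, had 15 reads over the CKO libraries and 6 over the flox libraries, too few to be compared.

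Genes through which the epithelium meets leukocytes gave no call by edgeR either. Of 8 tested MHC class II genes, 1 had a log2 fold change above 0 and 7 below (median -0.44). H2-Ab1 averaged 72.8 ± 20.4 CPM in CKO and 112 ± 72.2 CPM in flox (log2 fold change -0.62, edgeR adjusted p = 0.496), and H2-DMa had a log2 fold change of -0.49 (adjusted p = 0.510). Without flox 1 and flox 4 these came to -0.0075 and -0.050. The class II median was 0.12 without flox 1 and flox 4. Among 24 tested epithelial ligands and receptors for leukocytes, 15 were above 0 and 9 below (median 0.11), and 12 above and 12 below without flox 1 and flox 4. The neutrophil chemokine Cxcl5 averaged 1.19 ± 0.899 CPM in CKO and 0.214 ± 0.213 CPM in flox (log2 fold change 2.28, adjusted p = 0.365). Cxcl9, a chemokine for activated T cells, averaged 0.586 ± 0.334 CPM in CKO and 1.52 ± 1.01 CPM in flox (log2 fold change -1.39, adjusted p = 0.374).

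Other cell types gave 0 calls by edgeR. In 15 epithelial genes 4 were above 0 and 11 below (median -0.24). Krt18, an epithelial keratin, and Slc26a3, the colonic chloride exchanger, had log2 fold changes of -1.14 (edgeR adjusted p = 0.337) and 0.77 (adjusted p = 0.366). Of 4 tested endothelial genes 1 was above 0 and 3 below (median -0.44). Vwf, the von Willebrand factor of endothelium and platelets, averaged 3.57 ± 0.487 CPM in CKO and 6.49 ± 0.564 CPM in flox (SD, n = 5 each; log2 fold change -0.86, edgeR adjusted p = 0.174). DESeq2 called Vwf with all libraries and without flox 1 and flox 4 (adjusted p = 0.0238). Plvap, of capillary endothelium, had a log2 fold change of -0.91 (edgeR adjusted p = 0.432). Of 3 tested genes of enteric neurons and glia, the log2 fold change of Ret was -0.22 and that of Snap25 -0.26.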

How the data were processed

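RNA sequencing of mouse colon crypts gave 10 libraries (TruSeq kit with mRNA enrichment, per the labels' protocols), grouped and numbered 1 to 5 from the sample titles. The submitters' processing notes name fastp and HISAT2, without versions. No label or header names the genome build, annotation, counting tool or strand setting. The deposited counts are whole, unnormalized reads per Ensembl gene ID. The FPKM values deposited by the authors are scaled by length and library total and were used for comparisons between genes. Symbols and exon lengths came from GENCODE M21 (26095 of 33632 IDs matched). Counts were filtered (filterByExpr), TMM-normalized and tested with edgeR 4.0.16 in R 4.3.3 (robust quasi-likelihood, group as the sole term), adjusted over 14963 genes by Benjamini-Hochberg, threshold 0.05. Values after ± are SD over 5 libraries unless marked SE. DESeq2 1.42.0 and limma 3.58.1 served as alternatives. The log2 fold changes are CKO over flox. Members and lists were chosen with earlier results of these data known, so class totals are descriptions. In full were given Ptprc, the 3 most abundant members per class and the 2 with the smallest p among the rest. In other lists the 2 genes with the smallest p were named, leaving out immunoglobulin segments. Cd8a, Csf1r and the other members were named to account for all 44. No library pair agreed within sampling noise (lowest chi-square per degree of freedom 27.7 over 45 pairs).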

Additional observations from a re-analysis of the deposited data

Results flagged for a closer look

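A library stood far from the other 4 of its group in 4 of the 40 groups of values examined, where chance alone marks about 1 in 20. Klrd1 was 0.253 CPM in CKO 2, against 0.700 to 0.778 CPM in the other CKO libraries. Cd2 was 0.603 CPM in CKO 4, against 0.311 to 0.394 CPM in the other CKO libraries. Jchain was 2.57 CPM in flox 4, a library with a high mitochondrial share, against 0.178 to 0.791 CPM in the other flox libraries. C1qc was 0 CPM in flox 5, against 0.680 to 0.923 CPM in the other flox libraries.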

How the results depend on the processing

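No member was called under any alternative, including the leave-one-out fits (0 to 0 members). Over all genes, where edgeR called 0, DESeq2 called 165, limma with quality weights 44, edgeR without a low-count filter 3, and 1 each with totals outside chromosome M and with the mitochondrial share as covariate. Leaving out 1 library at a time gave 0 to 2 genes. DESeq2 without flox 1 and flox 4, chosen after seeing the data, called 68.

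Several members changed sign, none past the threshold. With library totals in place of TMM, the log2 fold change was 0.22 for Ptprc, 0.34 for Ccl5, 0.0064 for Lck and 0.26 for C1qa, where the median of all genes was itself 0.36. With totals outside chromosome M it was 0.14 for Ptprc, 0.20 for Ccl5 and 0.044 for C1qa (all genes 0.24). On log2(FPKM + 1) it was 0.19 for Ptprc, 0.40 for Ccl5, 0.00060 for Lck and 0.20 for C1qa (all genes 0.30), and on log2(FPKM + 0.1) it was 0.40, 0.41, 0.0028 and 0.23 for those 4 genes (all genes 0.41). Quality weights gave -0.12 for Gzma, -0.075 for Cd14 and 0.17 for C1qa. The mitochondrial covariate gave 0.33 for Ccl5, 0.40 for Jchain, -0.00062 for Cd14 and 0.65 for C1qa. Without flox 1 and flox 4, edgeR gave 0.25 for Ccl5, 0.30 for Jchain and 0.68 for C1qa, and DESeq2 gave 0.25, 0.30 and 0.67. Leaving out 1 library at a time gave ranges of -0.21 to 0.11 for Ptprc, -0.38 to 0.20 for Ccl5, -0.18 to 0.36 for Gzma, -0.050 to 0.15 for Cd14, -0.043 to 1.05 for Lyz2 and -0.63 to 0.19 for C1qa. The causes were not tested.

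For the class shares, the log2 ratio of CKO over flox on the TMM-normalized size was -0.97 for B and plasma markers, against -0.39 on library totals, and -0.082 for all members, against 0.35. T and NK markers turned sign, at -0.21 against 0.19, and myeloid and mast markers came to 0.13 against 0.56. On library totals, leaving out 1 library at a time gave 0.10 to 0.38 for T and NK, -0.53 to -0.26 for B and plasma, 0.27 to 0.70 for myeloid and mast, and 0.25 to 0.48 for all members. Same-numbered CKO and flox libraries did not deviate together (correlations from -0.30 to 0.40, 2 of 5 over 0.1, and 2 of 10 libraries closest to their own number). With the replicate number as a block, 0 genes and 0 members were called. Members with fewer than 10 reads are limited by depth, and neither their presence nor their change can be judged finely here.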
